A study of Mus musculus with 12 samples.

Results

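The DNA replication machinery copies the genome before a cell divides. Here it comprises the 34 genes, of 56980 in the deposited matrix, whose pathway annotation holds the entry DNA replication. Their mRNAs were measured by bulk RNA sequencing of whole livers. The livers came from males of the strain B6.Cg-Lepob/J (ob/ob, labelled Lep-/-), which make no leptin and become obese. Feeding began at an age of 8 weeks with a standard protein diet (SPD, with 25% of its energy from protein) or a low protein diet (LPD, 5%) with free access to food, and livers were taken 3 weeks later, at 11 weeks. All animals of both groups lacked leptin, and a library was made from each of 6 separate mice per diet. The comparison of LPD with SPD asks which mRNAs of the replication machinery differ with dietary protein in this obese liver.

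The machinery works in a fixed order. The MCM helicase, a ring of Mcm2 to Mcm7, is loaded on origins before S phase and unwinds the duplex, and replication protein A (RPA) coats the exposed single strands. DNA polymerase alpha with its primase lays down short RNA-DNA primers, the clamp loader (replication factor C) places the sliding clamp Pcna at them, and polymerases epsilon and delta extend the leading and the lagging strand. Flap endonuclease Fen1, RNase H2 and DNA ligase Lig1 remove the primers and join the fragments. Most hepatocytes of an adult liver rest outside the cell cycle, and many genes of this machinery are known targets of E2F transcription factors, which are held in check by RB family proteins until a cell enters S phase.

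Libraries held 19374676 to 23710930 counts, and 18094 to 18998 genes had a count. The defining hepatocyte mRNA Alb stood at a mean of 65535 CPM (depth-normalised read counts) in SPD and 57232 CPM in LPD livers. Alb is 1 of 8 hepatocyte markers, which went mostly the other way. Of the 8, 1 had an estimate below 0, none was called lower and 5 were called higher in the test below (20.7% of all genes). LPD replicates 2 and 5 had the highest positions on the first principal component (48.7 and 44.6, against 15.3 to 22.5 in the remaining LPD livers). The labels of LPD replicate 1 are in conflict: its treatment and description name the 25% protein diet, and its title and library code say LPD. Its expression correlated with the other LPD livers at a mean Pearson r of 0.984 and with the SPD livers at 0.975 across genes, and it was kept as LPD. The library codes are SP1 for 4 and SP2 for 2 of the SPD livers and LP4 for 4 and LP5 for 2 of the LPD livers. The labels do not name them as batches. If they are batches, they cannot be told apart from diet, since no code holds both diets.

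Promoter sequences are shown first because the letters bound by E2F factors recurred in them. A RefSeq promoter table (GRCm38.p6; 250 bases before to 50 after a transcript start) held 34 windows for 28 of the 34 genes. The letters TTTCCCGC, TTTCGCGC, TTTGCCGC or TTTGGCGC were searched on both strands, and matches may overlap. They occurred in 12 of the 34 windows (35.3%), against 2.27% of all 32851 windows of the table and 3.71% of the 13329 windows of genes tested below. The 2 MCM genes that fell most, and the only gene called higher in LPD, are printed from -200 to -1 relative to the start on the gene's own strand, with the matched letters in capitals on whichever strand they lie. Mcm5 is at chr8:75109309-75109508 (+), Mcm6 at chr1:128359706-128359905 (-) and Pole4 at chr6:82652875-82653074 (-).
Mcm5: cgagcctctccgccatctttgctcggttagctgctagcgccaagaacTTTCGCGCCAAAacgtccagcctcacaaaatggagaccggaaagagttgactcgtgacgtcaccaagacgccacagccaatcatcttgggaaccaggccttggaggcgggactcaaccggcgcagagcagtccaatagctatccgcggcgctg
Mcm6: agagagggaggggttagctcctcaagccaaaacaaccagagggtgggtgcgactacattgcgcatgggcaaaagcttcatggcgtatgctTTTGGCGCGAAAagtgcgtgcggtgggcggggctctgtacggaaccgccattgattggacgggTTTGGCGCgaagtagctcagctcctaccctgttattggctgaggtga
Pole4: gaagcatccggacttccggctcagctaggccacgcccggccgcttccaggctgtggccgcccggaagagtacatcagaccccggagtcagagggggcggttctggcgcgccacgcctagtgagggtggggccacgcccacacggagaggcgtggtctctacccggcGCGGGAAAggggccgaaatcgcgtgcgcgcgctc
Mcm5 carries a pair of overlapping matches that begin at -153 and -149, Mcm6 carries such a pair at -110 and -106 and a further match at -47, and Pole4 carries 1 match at -34.

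Shorter windows of 30 bases around the matches are given for other genes whose values are described below. Mcm7 also carries a match at -165, whose window (chr5:138172030-138172059) is not printed. Their positions are chr1:20820266-20820295 (-) for Mcm3, chr5:138171849-138171878 (-) for Mcm7, chr5:151651195-151651224 (-) for Rfc3, chr7:13278841-13278870 (+) for Lig1, chr12:69228162-69228191 (-) for Pole2 and chrX:93632275-93632304 (-) for Pola1.
Mcm3: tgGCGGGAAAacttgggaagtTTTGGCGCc
Mcm7: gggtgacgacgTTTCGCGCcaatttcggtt
Rfc3: gcacgcTTTCGCGCtcGCGGGAAAactcta
Lig1: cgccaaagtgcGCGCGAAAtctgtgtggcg
Pole2: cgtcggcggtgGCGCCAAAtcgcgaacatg
Pola1: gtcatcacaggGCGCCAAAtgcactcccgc
The letters were found in 11 genes, namely these 9, Pold1 and Pold3. Of the 11, 8 fell, Pole4 rose and Pola1 and Pold3 were not called. Of the 17 matched genes without them, 12 fell, so most genes fell both with and without these letters. Over all 10397 tested genes with a window, 19.3% were called lower, against 21.7% of the 469 with a match. The box CCAAT was in 17 of the 34 windows, against 37.4% of all windows and 37.6% of those of tested genes. The element TTTGAA, known from promoters of mitotic genes, was in 3 (8.82%), against 17.9% and 12.6%. With TTCGAA also allowed it was in 5 (14.7%), against 19.2% and 14.35%, a share close to that of tested genes.

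All 34 genes passed the filter on low counts and entered the gene test (edgeR's quasi-likelihood F test over 13768 genes, called at a Benjamini-Hochberg adjusted p under 0.05). In LPD livers 24 of them fell, 1 rose and 9 were not called, while 19.2% of all genes tested were called lower and 20.7% higher. The median log2 fold change, LPD over SPD, was -0.41 over the 34 genes and -0.00059 over all genes tested. In 14 of the 24 genes that fell, every LPD liver was below every SPD liver, which held together with a lower call for 9.7% of all genes tested. A fall of at least 2-fold was called for 8 of the 34 genes, namely Mcm2 to Mcm6, Pole, Pole2 and Lig1, and for 3.41% of all genes. In whole liver, fewer cells of a cycling type and less RNA per cell cannot be told apart.

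**Figure D1:**
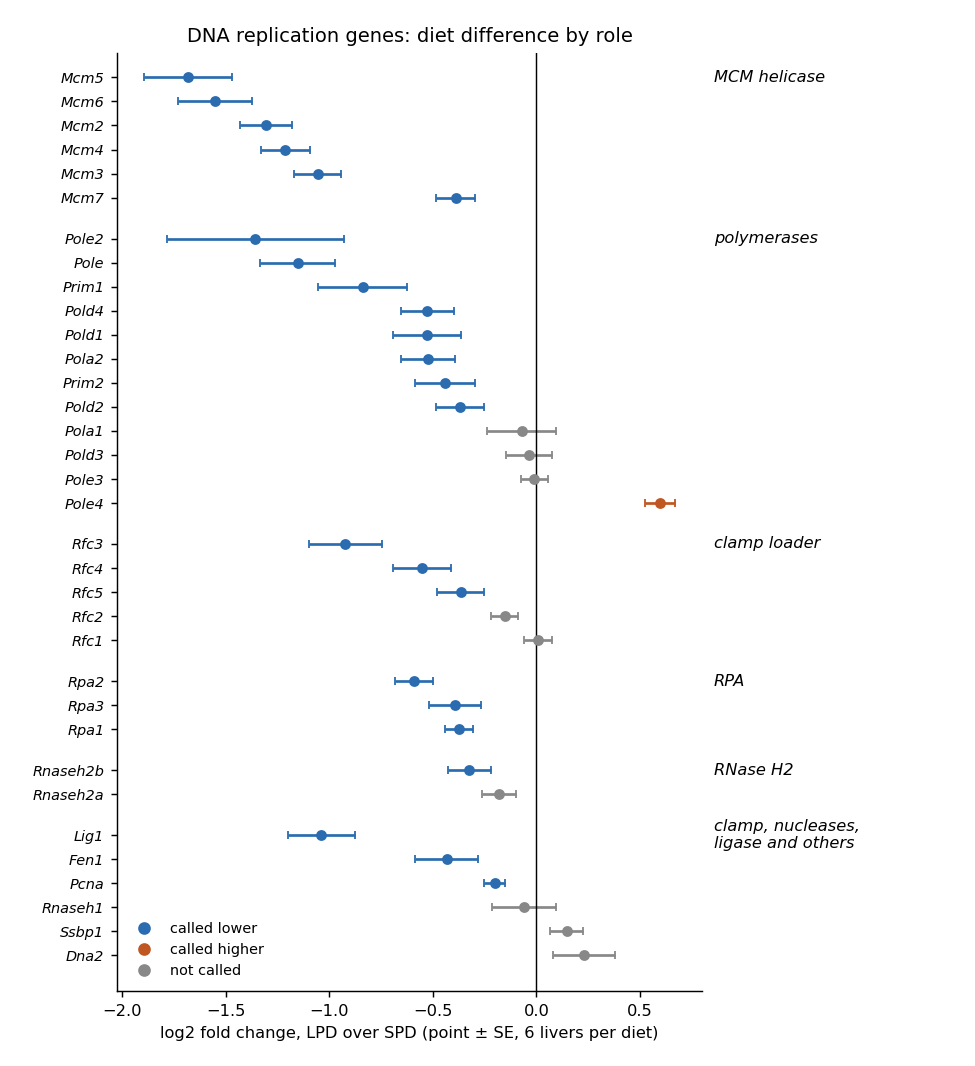
Log2 fold change of each of the 34 DNA replication genes, LPD over SPD, by role (points, with bars of 1 SE from the edgeR fit over 6 livers per diet; colour gives the call at an adjusted p under 0.05). All 6 MCM genes lie to the left of 0, from -1.68 to -0.39, and Pole4 is the only gene called to the right, at 0.60.

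The MCM helicase mRNAs fell most as a group, with a median log2 fold change of -1.26. All 6 were called lower, against 19.2% of all genes. In 5 of the 6 the diets did not overlap, which held together with a lower call for 9.7% of all genes. Mcm5 (ENSMUSG00000005410, chr8:75109569-75128439 in GRCm38, GENCODE M21) had 7.93, 9.61 and 12.2 CPM as its lowest, median and highest value in SPD livers and 1.55, 3.57 and 4.42 CPM in LPD livers. It was 3.21-fold lower in LPD (log2 fold change -1.68 ± 0.21 SE, adjusted p = 2.55e-05). The highest LPD liver was below the lowest SPD liver, and LPD replicates 2 and 5 were the lowest of all. Mcm6 (chr1:128331590-128359664) had 14.0, 18.1 and 22.4 CPM in SPD livers and 3.62, 6.55 and 8.48 CPM in LPD livers. It was 2.93-fold lower (-1.55 ± 0.18, adjusted p = 1.10e-05), and again the livers of the diets did not overlap.

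Mcm2, Mcm3 and Mcm4 fell by similar amounts. Mcm2 (chr6:88883474-88898780) had 14.0, 15.3 and 17.0 CPM in SPD and 4.64, 5.94 and 8.43 CPM in LPD livers, a fold change of -1.30 ± 0.13 on the log2 scale (adjusted p = 2.12e-06). Mcm4 (chr16:15623897-15637400) had 10.1, 12.0 and 14.7 CPM against 4.25, 5.02 and 6.43 CPM (-1.21 ± 0.12, adjusted p = 2.28e-06). Mcm3 (chr1:20802968-20820312) had 13.2, 14.1 and 16.2 CPM against 5.12, 6.99 and 8.65 CPM (-1.06 ± 0.11, adjusted p = 4.92e-06). All LPD livers were below all SPD livers for these 3 genes. Mcm2 to Mcm6 stayed called lower under each of the 23 alternative settings run.

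Mcm7 fell less. It had 13.2, 14.9 and 18.1 CPM in SPD livers and 10.7, 10.9 and 14.3 CPM in LPD livers, and was 1.31-fold lower (-0.39 ± 0.09, adjusted p = 0.00398). The diets overlapped through LPD replicate 1, at 14.3 CPM, while the other 5 LPD livers were below every SPD liver. Per kilobase of the deposited gene length, Mcm7 had 1.10 to 1.22 times the mean level of the other 5 MCM mRNAs in SPD livers and 1.95 to 3.03 times in LPD livers. The highest of the 6 MCM mRNAs was a median of 2.07 times the lowest per kilobase in SPD and 3.75 times in LPD. The 6 mRNAs were thus less even in LPD livers, since they fell by unequal amounts. Exons of Mcm7 (chr5:138164583-138172422) share 7.25% of their bases with Ap4m1 and 1.45% with Cops6 on the opposite strand (2595 and 18557 counts over all libraries, against 3439 for Mcm7), and the strand setting of the counting is not given in the sources used here.

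**Figure D2:**
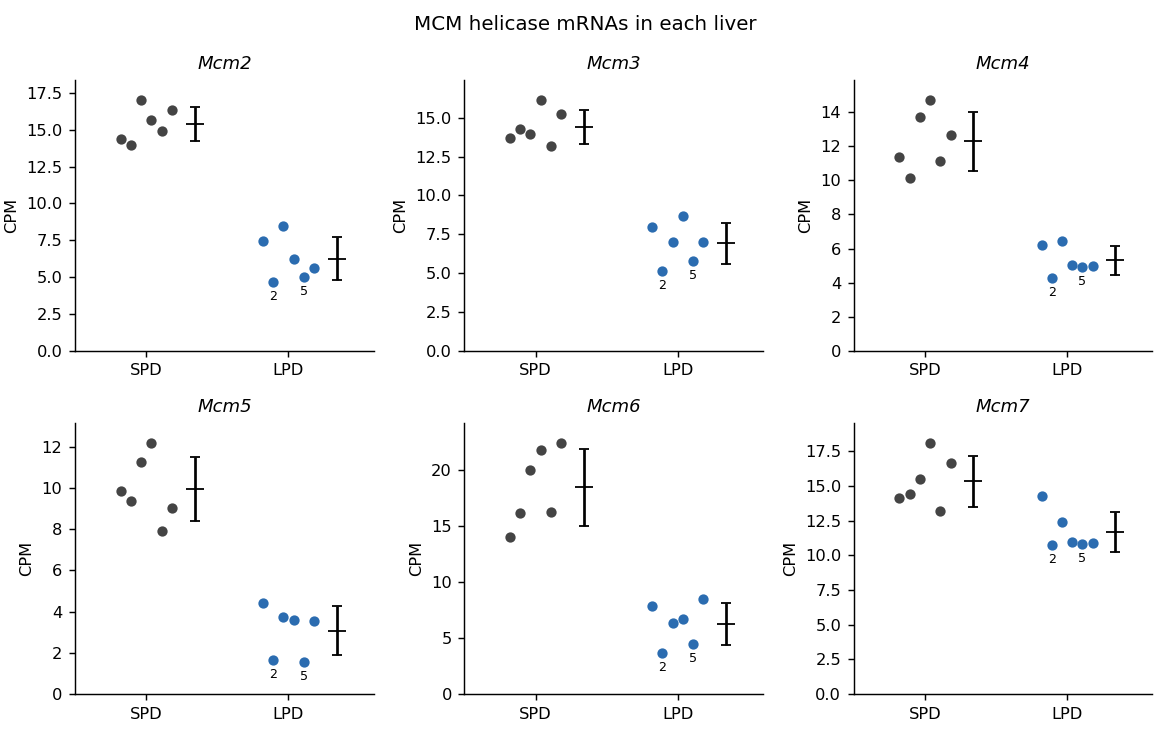
CPM of the 6 MCM helicase mRNAs in each liver (points; bars give mean and SD over 6 livers; 2 and 5 mark LPD replicates 2 and 5; each axis starts at 0). SPD and LPD livers are separate for Mcm2 to Mcm6, and the highest LPD liver of Mcm7, at 14.3 CPM, lies within the SPD range.

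Among the 12 polymerase and primase genes, 8 fell, 1 rose and 3 were not called, with a median log2 fold change of -0.48. Over all genes, 19.2% were called lower and 20.7% higher. Their summed level overlapped between the diets, at 99.7 to 113 CPM in SPD and 92.5 to 112 CPM in LPD livers. Without Pole4, the gene that rose, the sum was 77.2 to 88.9 CPM in SPD and 59.5 to 75.3 CPM in LPD livers and did not overlap. Because Pole4 was left out for its rise, this second sum only describes the remaining genes. The calls differed within each of the 3 enzymes, and whether the changes of their members differ was not tested.

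In polymerase alpha-primase, 3 of 4 genes fell, against 19.2% of all genes. Prim1, the catalytic primase subunit, was 1.79-fold lower (-0.84 ± 0.21, adjusted p = 0.0057), from 1.74, 2.47 and 3.36 CPM in SPD to 0.902, 1.43 and 1.82 CPM in LPD livers. Pola2, the accessory subunit, was 1.44-fold lower (-0.52 ± 0.13, adjusted p = 0.00497), from 6.91 to 9.87 CPM in SPD to 4.49 to 6.78 CPM in LPD livers, without overlap. Prim2, the large primase subunit, fell from 3.64 ± 0.713 to 2.67 ± 0.260 CPM (mean ± SD, n = 6; adjusted p = 0.0244). The ranges of Prim1 and Prim2 overlapped between the diets. The Prim2 call was lost without SPD replicate 3 (adjusted p = 0.0562), SPD replicate 4 (0.0623) or LPD replicate 2 (0.0519). Pola1, the catalytic subunit, was not called (3.96 ± 0.887 against 3.77 ± 0.594 CPM, adjusted p = 0.763).

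In polymerase delta, 3 of 4 genes fell, against 19.2% of all genes. Pold4, the smallest subunit, was 1.44-fold lower (-0.53 ± 0.13, adjusted p = 0.00427), with 16.5, 18.7 and 21.0 CPM in SPD and 8.89, 13.4 and 15.9 CPM in LPD livers. These ranges did not overlap, and LPD replicate 2 was the lowest liver. Pold1, the catalytic subunit, fell by the same 1.44-fold from a lower level, 3.51 ± 0.685 to 2.43 ± 0.460 CPM, with overlap (adjusted p = 0.0188, and 0.0504 without SPD replicate 5). Pold2, the structural subunit, fell from 7.49 ± 0.961 to 5.80 ± 0.788 CPM, with overlap (adjusted p = 0.018). Pold3 was not called, at 8.79 ± 1.63 and 8.57 ± 0.620 CPM (adjusted p = 0.832).

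Polymerase epsilon held members that fell, a member that rose and a member that was not called. Pole (ENSMUSG00000007080, chr5:110286306-110337474), the catalytic subunit, had 3.74, 4.32 and 6.69 CPM in SPD livers and 1.30, 2.18 and 2.64 CPM in LPD livers. It was 2.22-fold lower (-1.15 ± 0.18, adjusted p = 0.000153), with no overlap. Pole2, which binds the catalytic subunit, fell 2.56-fold (-1.36 ± 0.43, adjusted p = 0.0199), but it was the scarcest mRNA of the set. Its counts were as low as 4 in a library, its coefficient of variation was 63.1% over SPD and 50.1% over LPD livers, its ranges overlapped, and its call was lost without SPD replicate 6 (adjusted p = 0.0601). Exons of Pole2 share 8.50% of their bases with Gm49384 on the same strand (153 counts over all libraries, against 190 for Pole2). Its counts are uncertain for this reason too.

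The small subunits Pole3 and Pole4 carry histone folds and pair with each other. Pole4 (ENSMUSG00000030042) had 19.2, 22.9 and 24.2 CPM in SPD livers and 28.7, 33.9 and 38.1 CPM in LPD livers. Every LPD liver was above every SPD liver, which held together with a higher call for 10.1% of all genes tested, and it was 51.2% higher in LPD (log2 fold change 0.60 ± 0.07, adjusted p = 1.94e-05). Pole4 was called higher under each of the 23 alternative settings. Pole3 was at 22.4 ± 2.25 CPM in SPD and 22.3 ± 1.04 CPM in LPD livers and was not called (adjusted p = 0.922). Per kilobase, Pole4 stood at 31.7 to 68.6 times the level of Pole in SPD livers and at 120 to 280 times in LPD livers. This ratio only restates the rise of Pole4 and the fall of Pole.

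**Figure D3:**
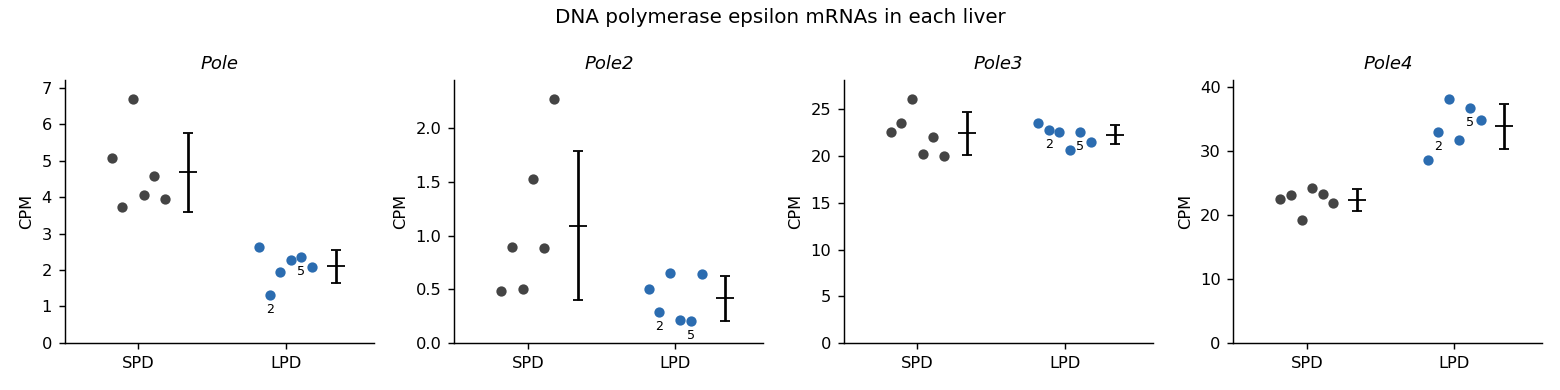
CPM of the 4 polymerase epsilon mRNAs in each liver (points; bars give mean and SD over 6 livers; 2 and 5 mark LPD replicates 2 and 5; each axis starts at 0). All LPD livers are below the SPD livers for Pole and above them for Pole4, while Pole3 lies at 22.4 and 22.3 CPM on average and the points of Pole2 overlap.

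Of the 5 clamp loader genes, 3 fell and 2 were not called, with a median of -0.36, while 19.2% of all genes were called lower. Rfc3 (chr5:151642756-151651242), a small subunit of the complex, had 5.27, 6.49 and 7.33 CPM in SPD livers and 1.81, 3.30 and 4.56 CPM in LPD livers. It was 1.89-fold lower (-0.92 ± 0.18, adjusted p = 0.000719), with no overlap, and LPD replicate 3 was its lowest liver. Rfc4 was 1.47-fold lower (-0.55 ± 0.14, adjusted p = 0.00571), from 3.24 to 4.96 CPM in SPD to 2.33 to 3.19 CPM in LPD livers, without overlap. Rfc5 fell from 8.58 ± 0.826 to 6.65 ± 1.09 CPM (adjusted p = 0.0187), with overlap.

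The large subunit Rfc1 and the small subunit Rfc2 were not called. Rfc1 was at 23.5 ± 2.37 CPM in SPD and 23.6 ± 1.32 CPM in LPD livers (adjusted p = 0.951), and Rfc2 at 20.4 ± 1.78 and 18.4 ± 0.888 CPM (adjusted p = 0.0724). Rfc2 was called lower without SPD replicate 4 (adjusted p = 0.0152) and with upper quartile scaling (0.0498). Per kilobase, Rfc1 stood at 1.17 to 1.61 times the mean level of Rfc3, Rfc4 and Rfc5 in SPD livers and at 1.85 to 2.49 times in LPD livers. Rfc3, Rfc4 and Rfc5 are the genes of the complex that were called lower, and Rfc2 is left out. The ratio therefore only restates their fall beside Rfc1. Exons of Rfc4 overlap Eif4a2 on the opposite strand over 12.7% of their bases, with 49814 counts over all libraries for Eif4a2 and 833 for Rfc4. Exons of Rfc5 overlap Wsb2 over 10.7% (17866 and 1948 counts) and those of Rfc2 overlap Lat2 over 15.1% (146 and 4964 counts). The deposited counts were not whole numbers in 11 libraries for Rfc5, in 9 for Rfc2 and in 0 for Rfc4. The cause of this difference was not tested. The counts of Rfc2, Rfc4 and Rfc5 are therefore uncertain, to an extent these values do not bound.

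Pcna, the sliding clamp that the loader opens and closes, changed little in size but beyond the spread between livers. It had 31.0, 32.8 and 35.6 CPM in SPD livers and 26.3, 29.1 and 30.5 CPM in LPD livers. All LPD livers were below all SPD livers, and the level was 13.0% lower (log2 fold change -0.20 ± 0.05, adjusted p = 0.00612). This was the smallest fall among the 24 called genes. The deposited counts of Pcna were not whole numbers in 5 libraries, and the cause was not tested.

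All 3 genes of RPA fell, with a median of -0.39, while 19.2% of all genes were called lower. Rpa2, the middle subunit, had 8.41, 9.32 and 10.4 CPM in SPD livers and 5.27, 6.24 and 7.38 CPM in LPD livers, a fall of 33.5% (-0.59 ± 0.09, adjusted p = 0.000149). Rpa1 (chr11:75298166-75348324), the large DNA-binding subunit and the member with the highest CPM in SPD livers, had 38.6, 43.3 and 45.8 CPM against 29.5, 33.4 and 38.6 CPM (-0.37 ± 0.07, adjusted p = 0.000416). Neither gene overlapped between the diets, although the highest LPD and the lowest SPD liver of Rpa1 both rounded to 38.6 CPM. Rpa3, the small subunit, fell from 5.38 ± 0.581 to 4.11 ± 0.705 CPM with overlap (adjusted p = 0.0213, and 0.0524 without SPD replicate 1). The 3 mRNAs summed to 54.5 to 60.5 CPM in SPD livers and 38.8 to 49.4 CPM in LPD livers.

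The enzymes that mature the lagging strand were split. Lig1 (chr7:13277283-13311433), the ligase that joins Okazaki fragments, had 6.86, 9.35 and 11.4 CPM in SPD livers and 2.96, 4.38 and 6.10 CPM in LPD livers. It was 2.05-fold lower (-1.04 ± 0.16, adjusted p = 0.000147), with no overlap, and its call held in all 23 alternative settings. Exons of Lig1 share 5.79% of their bases with Zswim9 on the opposite strand (647 counts over all libraries, against 1746 for Lig1). Its counts are uncertain to that extent. Fen1 fell from 5.23 ± 1.03 to 3.87 ± 0.691 CPM with overlap (-0.43 ± 0.15, adjusted p = 0.0347). Its call was lost when any of 6 single livers was left out: SPD replicate 3 (adjusted p = 0.0597), 4 (0.0765) or 6 (0.0860), or LPD replicate 1 (0.0562), 5 (0.0736) or 6 (0.0780). Its exons, with 1156 counts over all libraries, overlap the antisense transcript Gm10143 over 78.8% of their bases (55 counts) and Tmem258 on the opposite strand over 5.37% (3844 counts), so its counts are uncertain. Dna2, a nuclease and helicase that trims long flaps, was not called (4.95 ± 1.19 and 5.80 ± 0.723 CPM, adjusted p = 0.234).

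RNase H2 removes ribonucleotides from DNA and acts throughout the life of a cell. Of its 2 annotated genes, Rnaseh2b fell from 9.69 ± 1.14 to 7.76 ± 0.986 CPM with overlap (adjusted p = 0.0196). The catalytic subunit Rnaseh2a was not called, at 14.8 ± 1.65 and 13.1 ± 1.10 CPM (adjusted p = 0.0981), and was called lower only without SPD replicate 3 (0.0351). Exons of Rnaseh2a share 5.04% of their bases with Prdx2 on the opposite strand (29900 counts over all libraries, against 3564 for Rnaseh2a), so its counts are uncertain. The third subunit, Rnaseh2c, lacks the annotation entry and was looked up after the other values had been seen. It was at 21.3 ± 2.04 and 21.4 ± 2.50 CPM (log2 fold change 0.0037 ± 0.08, adjusted p = 0.977).

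The annotation entry also holds Rnaseh1, which cuts RNA in RNA-DNA hybrids and works in nucleus and mitochondria, and Ssbp1, the single-strand binding protein of mitochondria. Neither was called. Rnaseh1 was at 4.24 ± 0.742 and 4.06 ± 0.861 CPM (adjusted p = 0.789) and Ssbp1 at 14.8 ± 1.29 and 16.4 ± 1.59 CPM (adjusted p = 0.152). With LPD replicate 1 counted as SPD, as 2 of its labels would have it, Ssbp1 was called higher in LPD (log2 fold change 0.21, adjusted p = 0.0377), as were 16.2% of all genes, and 20 of the 34 genes were called lower, against 15.9%.

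The order of the mRNA levels changed with the diet, on the scale of CPM per kilobase of gene length. Pole4 (34.5 ± 2.71 in SPD, 52.2 ± 5.33 in LPD) and Pcna (21.8 ± 1.03 and 19.0 ± 1.05) stood first and second in both diets. Pole (0.654 ± 0.153 and 0.294 ± 0.064) and Pole2 (0.641 ± 0.405 and 0.244 ± 0.122) stood last, and did not differ from each other beyond their spread. The 6 MCM mRNAs lay between 2.94 and 6.34 in SPD and between 0.910 and 3.95 in LPD. Mcm7 was second among the 6 in SPD, after Mcm6, and first in LPD. The 6 MCM mRNAs made up 18.9% to 22.9% of the summed CPM of the 34 genes in SPD livers and 10.2% to 14.0% in LPD livers, and that sum was 385 to 431 CPM and 295 to 345 CPM.

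The coefficient of variation between livers had a median over the 34 genes of 12.6% in SPD and 15.7% in LPD. LPD replicate 2 was the lowest LPD liver for 16 genes and LPD replicate 5 for 7, against 11 for the other 4 livers together. Their summed MCM level was 30.01 and 32.54 CPM, against a median of 40.9 CPM over the 6 LPD livers. Without these 2 livers, 17 of the 34 genes were called lower and Pole4 alone higher, against 15.8% of all genes lower and 16.7% higher. The calls lost were those of Fen1, Pold1, Pold2, Pole2, Prim2, Rfc5 and Rnaseh2b. The median over the 34 genes was -0.40 without these livers and -0.41 with them.

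**Figure D4:**
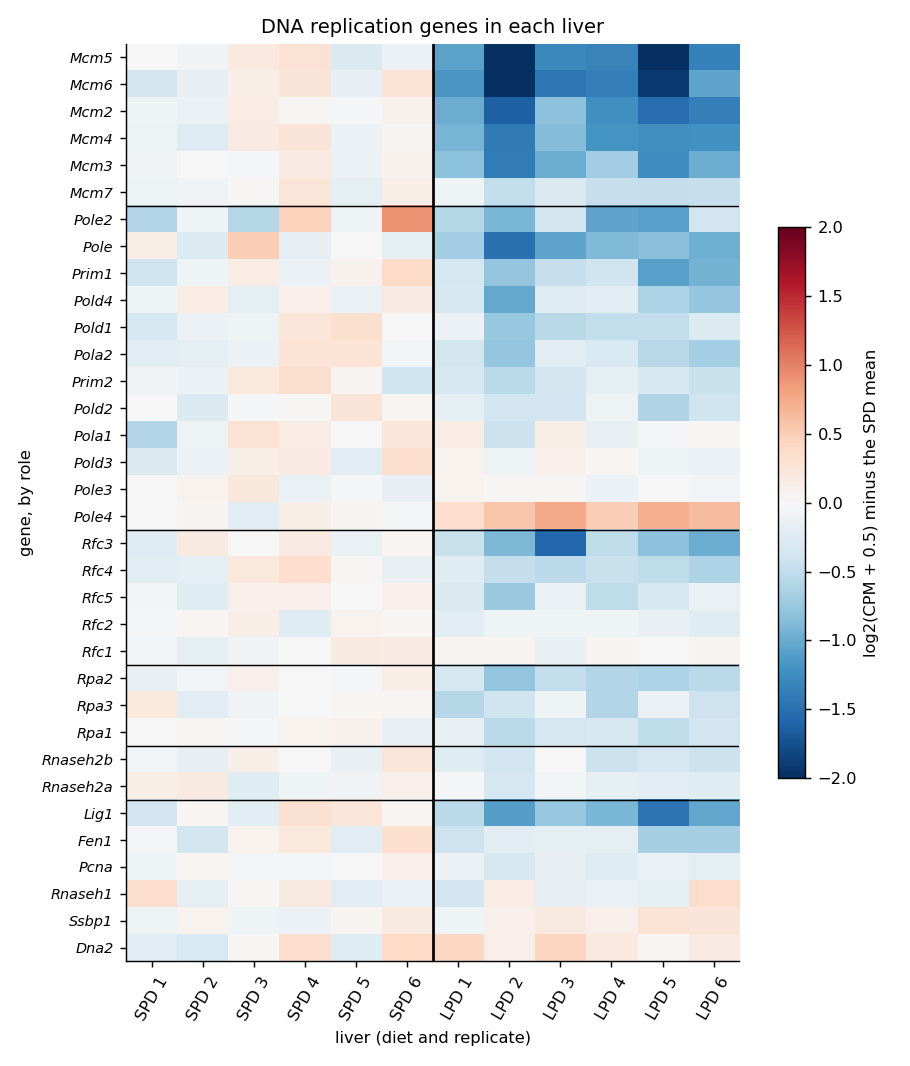
Each of the 34 genes (rows, by role) in each of the 12 livers (columns), as log2(CPM + 0.5) minus the mean of the SPD livers; blue is below and red above that mean, and the colour scale ends at 2 in either direction. The MCM rows and the Lig1 row are blue in all 6 LPD livers, darkest in LPD replicates 2 and 5, and the Pole4 row is red in all 6. Among these blue rows Mcm7 is the palest.

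The livers were also compared by library code, setting the larger code of each diet against the other and the smaller likewise. The labels do not tie these codes to each other, so this is a comparison of subsets and not within a batch. Among the SP1 and LP4 livers alone, 11 of the 34 genes were called lower, against 12.2% of all genes, with a median of -0.40. Among the SP2 and LP5 livers alone, with 2 per diet, 8 were called lower, against 4.63% of all genes, with a median of -0.53. Pole4 was the only gene called higher in either (13.2% and 3.82% of all genes). Mcm2 to Mcm6 and Lig1 were called lower in both.

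The genes were also divided by their other annotation entries. The 7 that are listed under the cell cycle as well, Mcm2 to Mcm7 and Pcna, all fell, with a median of -1.21. Of the 20 listed under a DNA repair map as well, 14 fell and Pole4 rose (median -0.38). Of the 14 in no repair map, 10 fell (median -0.48). By map, 13 of 18 genes shared with nucleotide excision repair fell, as did 11 of 15 shared with mismatch repair, 8 of 11 shared with base excision repair and 6 of 8 shared with homologous recombination. These sets overlap in most of their genes. The genes in and out of a repair map fell at about the rate of all 34, of which 24 fell. Of all genes tested, 19.2% were called lower and 20.7% higher.

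Genes that work with this machinery were taken from lists of textbook roles, to be read against the 19.2% of all genes called lower and the 20.7% called higher. Of 22 tested genes of origin licensing and firing, 10 fell and 2 rose (median -0.15). Topbp1, which recruits firing factors, fell from 18.3 ± 1.53 to 10.3 ± 1.31 CPM. Dbf4, the activator of the kinase that fires origins, fell from 4.69 ± 0.647 to 1.87 ± 0.475 CPM. Gins2, a subunit of the active helicase, fell from 8.88 ± 1.10 to 4.79 ± 0.768 CPM (edgeR adjusted p = 3.29e-05, the largest of these 3). None of these 3 overlapped between the diets.

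Of 14 genes of fork protection and checkpoint signalling, 7 fell and 2 rose (median -0.26). Clspn fell by 1.70 ± 0.26 and Timeless by 0.92 ± 0.15 on the log2 scale, both factors that travel with the fork, and Rad1, of the checkpoint clamp, rose by 0.59 ± 0.10. Of 6 tested alternative clamp loader and topoisomerase genes, Top2a fell (5.71 ± 0.941 to 1.93 ± 0.601 CPM), Top1 rose (46.2 ± 2.81 to 52.9 ± 4.24 CPM) and 4 were not called. The topoisomerase that decatenates finished chromosomes and the one that relieves tension during transcription and replication thus differed in direction.

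Of 18 tested genes of deoxynucleotide supply, 6 fell and 3 rose (median -0.08). The ribonucleotide reductase subunits Rrm1 (24.8 ± 2.77 to 17.9 ± 0.395 CPM) and Rrm2 (13.1 ± 2.05 to 8.32 ± 1.56 CPM) and the dUTPase Dut (7.60 ± 0.292 to 5.53 ± 0.462 CPM) fell without overlap. Gart, of purine synthesis, rose from 25.5 ± 1.29 to 30.7 ± 1.07 CPM. Of 10 genes of chromatin assembly and maintenance methylation, 7 fell and 2 rose (median -0.86). Among them the histone chaperone subunit Chaf1a (-1.24 ± 0.12), the remodeller Hells (-1.82 ± 0.25) and the centromeric histone Cenpa (-0.84 ± 0.14) fell without overlap.

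Of 18 tested genes of the E2F, RB and DREAM group, 8 fell and 2 rose (median -0.26). The activator E2f1 had 6.23, 7.40 and 8.08 CPM in SPD livers and 2.11, 2.44 and 3.14 CPM in LPD livers, a log2 fold change of -1.55 ± 0.12 (adjusted p = 3.36e-07). Foxm1, which drives late cell cycle genes, fell from 1.89 ± 0.567 to 0.456 ± 0.250 CPM. The repressor E2f4 rose from 10.6 ± 0.985 to 13.7 ± 0.967 CPM. The diets did not overlap for any of these 3 genes.

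Of 16 tested G1/S cyclins, kinases and inhibitors, 8 fell and 2 rose (median -0.26). Ccne1 (-1.34 ± 0.17) and Ccna2 (-1.76 ± 0.23), cyclins of S phase entry and progression, and the D-type cyclin Ccnd3 (-0.37 ± 0.06) fell without overlap. Ccnd1 fell from 99.1 ± 16.8 to 62.1 ± 12.9 CPM with overlap. The kinase inhibitor Cdkn1a rose from 33.3, 52.0 and 62.9 CPM in SPD livers to 66.7, 107 and 135 CPM in LPD livers (1.03 ± 0.18, adjusted p = 0.000449). Its ranges did not overlap.

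All 18 tested genes of mitosis fell, 17 of them without overlap, with a median of -1.80. A lower call without overlap was found for 9.7% of all genes. The mitotic kinase Cdk1 (-1.84 ± 0.15), its cyclin Ccnb1 (-2.35 ± 0.23) and the spindle midzone protein Prc1 (-2.12 ± 0.25) had the smallest adjusted p of the list. Mki67, a marker of cycling cells, had 5.46, 6.17 and 8.23 CPM in SPD livers and 0.725, 2.30 and 2.73 CPM in LPD livers (-1.65 ± 0.22, adjusted p = 3.68e-05). The MCM median of -1.26 lay between this median and that of the other replication groups.

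The neighbouring repair lists held genes that fell and genes that rose, to be read against 19.2% of all genes called lower and 20.7% called higher. Of 8 mismatch repair genes, 3 fell and 1 rose. Among those that fell, Msh6 fell by 0.61 ± 0.07 and Exo1 by 2.56 ± 0.43 on the log2 scale, both without overlap. Of 11 tested genes listed under translesion and repair polymerases, not all of them polymerases, 3 fell. Among these were Rad18 (-1.01 ± 0.15), which is not a polymerase, and Primpol (-0.68 ± 0.13), and Rev1 alone rose (0.43 ± 0.08). Of 10 genes of mitochondrial DNA replication, 1 fell and 4 rose (median 0.14). The 1 that fell was Primpol, which is in both lists. The mitochondrial helicase Twnk rose from 20.7 ± 1.73 to 26.5 ± 3.83 CPM and the mitochondrial RNA polymerase Polrmt from 11.9 ± 1.78 to 14.97 ± 0.794 CPM, both with overlap. Ssbp1, the mitochondrial member of the 34 genes, was not called.

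**Figure D5:**
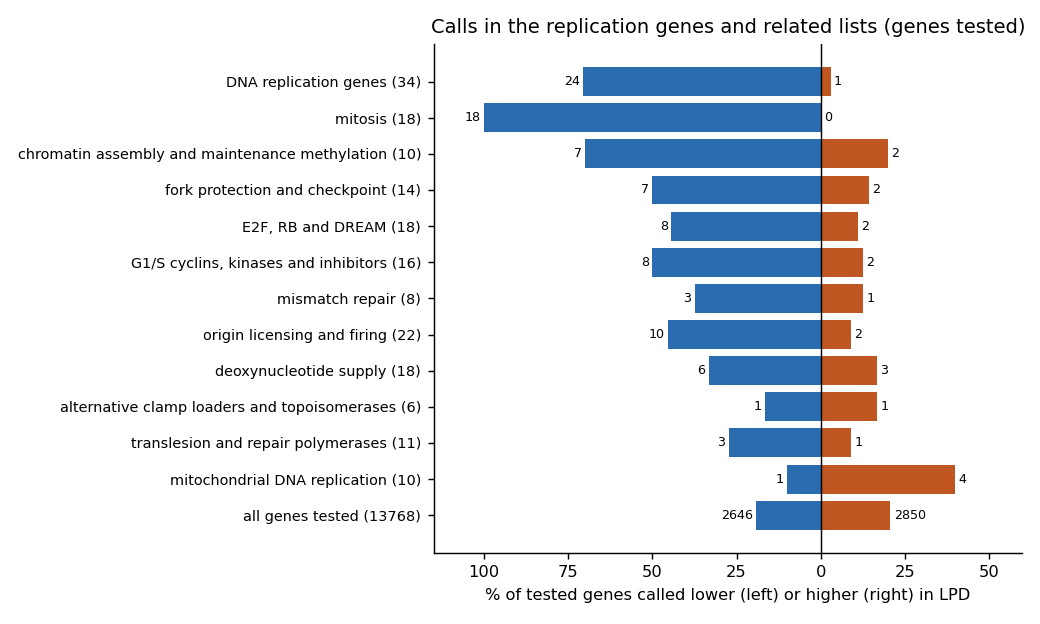
Share of the tested genes called lower (bars to the left) or higher (bars to the right) in LPD livers for the DNA replication genes, for 11 related lists and for all genes tested; the number at each bar counts the genes and the number in parentheses those tested. The bar to the left is longest for mitosis (18 of 18), and mitochondrial DNA replication has the longest bar to the right (4 of 10).

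Markers of other cell types were counted in the same test, in which 19.2% of all genes were called lower and 20.7% higher. The summed level of 8 lipid-associated macrophage markers was 455 to 732 CPM in SPD livers and 94.4 to 274 CPM in LPD livers, with 5 of 8 called lower, and was 108 and 94.4 CPM in LPD replicates 2 and 5. Of 10 stellate cell markers, 5 were called lower and 1 higher (479 to 625 and 339 to 529 CPM). Most Kupffer cell and endothelial markers were not called. Of 11 Kupffer cell and macrophage markers, 2 were lower and 1 higher (838 to 1261 and 679 to 999 CPM), and of 8 endothelial markers 2 were lower and 1 higher (405 to 459 and 364 to 426 CPM). Of 8 hepatocyte markers, none was called lower and 5 were called higher (75904 to 83525 and 70546 to 97287 CPM).

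Lymphocyte, neutrophil and bile duct markers were scarce. The summed T and NK cell markers stayed between 2.32 and 5.58 CPM over all 12 livers, and the cholangiocyte markers between 4.81 and 10.6 CPM; only 2 of 8 and 4 of 6 of these markers passed the filter on low counts, and none of those was called. B cell markers lay at 5.48 to 28.3 CPM in SPD and 3.97 to 7.68 CPM in LPD livers (1 of 3 tested called lower) and neutrophil markers at 2.09 to 8.19 and 1.06 to 2.69 CPM (1 of 2). Erythroid markers lay at 925 to 1688 and 229 to 2129 CPM, with none of 6 tested called. No marker of these lists was at 0 in all libraries. The part of these cell types in the fall of the replication genes was not tested.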

How the data were processed

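Expected counts, not scaled between libraries by the authors per the file headers, were deposited for each of 12 libraries together with a length and pathway entries per gene. TopHat, DESeq2 and mm10 are named in the submitters' processing notes, with no version or role; for the counting program, its strand setting and its handling of shared reads, "not given in the sources used here" applies. Counts were rounded and tested in R 4.3.3 with edgeR 4.0.16 (TMM, filterByExpr with a minimum count of 10 and total of 15, quasi-likelihood F test, no covariate, Benjamini-Hochberg adjustment over 13768 genes). SE is the absolute log2 fold change over the square root of F. CPM uses TMM-scaled totals. The tests were checked on counts simulated with the dispersions fitted to these data. At a log2 change of 0.75, 76.5% of 98 altered genes were called, and at 1.5, 94.8% of 97. Of 13448 unaltered genes, 10 were called. How often smaller changes are called was not tested, so a gene not called is not shown to be unchanged. Each library is a separate mouse, and n counts mice.

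The text names all 34 genes, up to 3 called genes with the smallest adjusted p of each related list, and always Mki67, Ccnd1, Cdkn1a, E2f1 and Rrm2; Rnaseh2c and the overlapping genes were added after values were seen, and marker lists are given as sums apart from Alb. The values of 1 gene that the rule names are not reported here. Members, lists and ratios were chosen with earlier results of these data known. Promoters come from RefSeq (GRCm38.p6); 6 genes had no entry (Mcm4, Pole, Prim2, Rfc2, Rnaseh1, Rnaseh2b). Gene coordinates are GENCODE M21. Alternatives were DESeq2 1.42.0, limma 3.58.1 (voom with sample weights), other scalings and filters, a replicate block, and subsets of livers.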

Additional observations from a re-analysis of the deposited data

Results flagged for a closer look

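Of 68 groups examined (34 genes in 2 diets), 1 had a liver far from the others of its diet. Rfc1 in LPD replicate 3 was at 21.0 CPM, against 23.3 CPM in the next lowest LPD liver, a gap of 0.681 of the whole range of the 6 livers, above the limit of Dixon's test. Chance gives about 5% of groups such a gap, so 1 in 68 is not above that rate. The same liver was the lowest LPD liver of Rfc3.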

How the results depend on the processing

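The 7 other scalings, filters, tools and the replicate block used all 12 livers, and 22 to 25 of the 34 genes were called lower. Over all genes 10.2% to 20.4% were called lower in these settings, and the stricter filter left out Pole2 and tested 33. Pole4 alone was called higher, and the median lay between -0.43 and -0.39. Leaving out single livers gave 22 to 24 lower, against 17.2% to 19.1% of all genes, and medians of -0.45 to -0.38. Replicate numbers did not pair the livers (correlation of same-numbered deviations -0.054 to 0.097, and 2 of 6 livers closest to their own number); with the number as a block 23 genes were called lower, without Fen1 (adjusted p = 0.0505), and limma-voom lost Fen1 (0.0697) and Pole2 (0.0539). LPD replicate 1 counted as SPD gave 20 lower (15.9% of all genes) and 2 higher (16.2%), losing Fen1, Prim2, Rfc5 and Rpa3. SP1 and LP4 livers alone gave 11 lower, with 1693 genes lower and 1827 higher over all genes; SP2 and LP5 livers alone gave 8, with 654 and 540, and a median of -0.53. Fewer livers enter these fits.

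Signs reversed only among genes that were not called. Rfc1 was below 0 with upper quartile scaling (-0.0084), the stricter filter (-0.00047), LPD replicate 1 as SPD (-0.0092), SP2 and LP5 alone (-0.14) and without some single livers (range over all -0.030 to 0.045). Pola1 was above 0 with limma-voom (0.034), without LPD replicate 2 (single livers left out gave -0.18 to 0.0040) and without LPD replicates 2 and 5 (0.018). Pold3 was above 0 with limma-voom (0.032), SP1 and LP4 alone (0.051), without LPD replicates 2 and 5 (0.011) and without SPD replicate 6 (single livers, -0.092 to 0.046). Rnaseh1 was above 0 with LPD replicate 1 as SPD (0.065), SP2 and LP5 alone (0.32) and without SPD or LPD replicate 1 (single livers, -0.16 to 0.023). Pole3 was above 0 with SP2 and LP5 alone (0.066) and without some single livers (range over all -0.041 to 0.040). The cause of these reversals was not tested. Depth limits Pole2 most, with counts as low as 4.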
